A study of Homo sapiens with 12 samples.

Results

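The genes described here are 29 genes of peroxisome biogenesis and metabolism, found by gene symbol among the 20212 protein-coding genes counted in PANC-1 cells. They comprise 11 peroxins, which build the organelle, and 18 enzymes and transporters, most of which work in its matrix or membrane. PANC-1, a long-established cell line, was derived from a human carcinoma of the pancreatic duct. Cells of the control group were treated with DMSO, the solvent, and cells of the other group with 50 nM rapamycin for 60 min. Rapamycin inhibits mTOR, the kinase that couples nutrient supply to protein synthesis. Each group held 3 biological replicates, called cultures here, and each culture gave 1 library of ribosome footprints (RF), the mRNA fragments covered by ribosomes, and 1 library of total RNA. No other agent or genetic change distinguished the groups, and a single cell line at a single dose and time limits what the comparison covers.

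Peroxisomes are organelles bounded by a single membrane that shorten very long and branched fatty acids, start the synthesis of ether lipids and handle hydrogen peroxide. Their matrix proteins are made in the cytosol and imported in a folded state. The receptors PEX5 and PEX7 bind the cargo, PEX13 and PEX14 dock the receptor at the membrane, a RING ligase complex that includes PEX2 and PEX10 marks the receptor with ubiquitin, and PEX6, which PEX26 anchors to the membrane, helps to extract it. PEX3, PEX16 and PEX19 place the membrane proteins themselves.

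Many matrix enzymes carry their import signal at the extreme carboxyl end of the protein, where PEX5 reads it, so the last codons before the stop are the part of the mRNA that directs the product to the peroxisome. ACAA1, PHYH and AGPS instead carry a signal near the amino end, which PEX7 reads. The ends of the coding sequences of 10 enzymes are printed here because they include those on which the results turn (GNPAT, PECR, HACL1), all enzymes that share the motif named after the sequences, and the redox enzymes CAT and PRDX5. Each sequence is 30 bases long, runs 5′ to 3′ on the coding strand and ends with the stop codon, with the last 3 codons and the stop in capitals. They were read from canonical transcripts annotated on GRCh37.
GNPAT (chr1:231413259-231413288, plus strand): ataggaaaaccagccactGCAAAACTTTAA
PECR (chr2:216903998-216904027, minus strand): gagacctttaaggagaaaGCTAAGCTCTGA
SCP2 (chr1:53516347-53516376, plus strand): cagcttcagccaggcaacGCTAAGCTCTGA
HSD17B4 (chr5:118877660-118877689, plus strand): atgattcttaaagactacGCCAAGCTCTGA
IDH1 (chr2:209101803-209101832, minus strand): aagatcaaactagctcagGCCAAACTTTAA
ACOT8 (chr20:44470477-44470506, minus strand): aagccccaggtctcagagAGCAAGCTGTAG
ACOX3 (chr4:8368688-8368717, minus strand): gtcataggaagtctgaaaTCGAAGCTCTAG
HACL1 (chr3:15602372-15602401, minus strand): tttcattggctgacccgcTCTAATATGTAA
CAT (chr11:34492951-34492980, plus strand): ttggcggcaagggagaagGCAAATCTGTGA
PRDX5 (chr11:64089134-64089163, plus strand): ctggcacccaatatcatcTCACAGCTCTGA

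The first 7 of these end in AAGCTN or AAACTN directly before the stop codon, the codons for the closing pair of residues of the best known form of this signal. Only the coding strand was searched. Among the 18 enzymes and transporters 7 held the motif (38.9%), none of the 10 peroxins searched did, and over 19443 protein-coding genes 136 did (0.699%). A match of letters is a description and not a test of import. GNPAT and PECR both ended in the motif, and their fitted TE differences had opposite signs.

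The RF libraries were shallow. They held 278835 to 1574723 counts, against 78081241 to 94293744 counts in the total RNA libraries. A count of 0 in an RF library allows up to 2.03 CPM (counts per 1000000 counts of the library, after scaling) in the deepest and up to 9.93 CPM in the shallowest, which is 3 counts, for counting error only. In total RNA, DMSO cultures 1 and 2 stood apart, with 16840 and 16858 genes detected against 19751 to 19847 in the other 4 libraries. Among the markers of pancreatic duct cells, the keratin KRT19 stood at 1372 ± 32.6 FPKM (fragments per kilobase, scaled to library depth) in DMSO and 1383 ± 52.43 FPKM in rapamycin (SD, n = 3), whereas the chloride channel CFTR was under 1 FPKM. None of the 4 acinar, 4 endocrine or 2 matched endothelial markers reached 1 FPKM, 1 of 4 stromal markers did (COL1A1), and 1 of 3 leukocyte markers did (CD68). The summed level of the leukocyte markers, nearly all of it CD68, lay between 69 and 88.3 FPKM in DMSO and between 77 and 82.4 in rapamycin. For the acinar, endocrine, endothelial and stromal lists it was below 2 FPKM in every library.

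All 29 genes were expressed at the RNA level, and their levels were spread over a wide range. PRDX5, a peroxiredoxin that reduces peroxides and is also found in mitochondria, had the most RNA, at 248.1 ± 7.122 FPKM in DMSO (SD, n = 3). SCP2, a thiolase and lipid carrier, followed at 51.82 ± 0.889 FPKM, close to HSD17B4, the bifunctional enzyme of beta-oxidation, at 51.63 ± 5.167 FPKM. CAT, catalase, stood at 44.84 ± 0.2317 FPKM. Among the peroxins PEX2 was the most abundant at 27.57 ± 0.6158 FPKM and PEX26 the least at 6.627 ± 0.3202 FPKM. DHRS4, a carbonyl reductase, was the lowest of all at 2.089 ± 0.4635 FPKM. Of the 28 neighbouring pairs in this order, 20 were further apart than the larger SD of the pair and 8 were not.

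Footprint levels, in CPM per kilobase of coding length, were much less well separated. PRDX5 was again the highest at 327 ± 16.6 in DMSO, above SCP2 at 70.2 ± 35.3, PEX16 at 65.6 ± 30.2 and CAT at 63.9 ± 12. Only 3 of the 28 neighbouring pairs in this order were further apart than the larger SD, which were PRDX5 over SCP2, CAT over AGPS and ABCD4 over AMACR, and the last of these rested on a handful of counts. PEX10, a RING ligase subunit, had 8.72 ± 0.879 CPM per kilobase at 21 ± 0.5351 FPKM, whereas PEX16 had far more footprints at 17.2 ± 0.1285 FPKM.

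**Figure D1:**
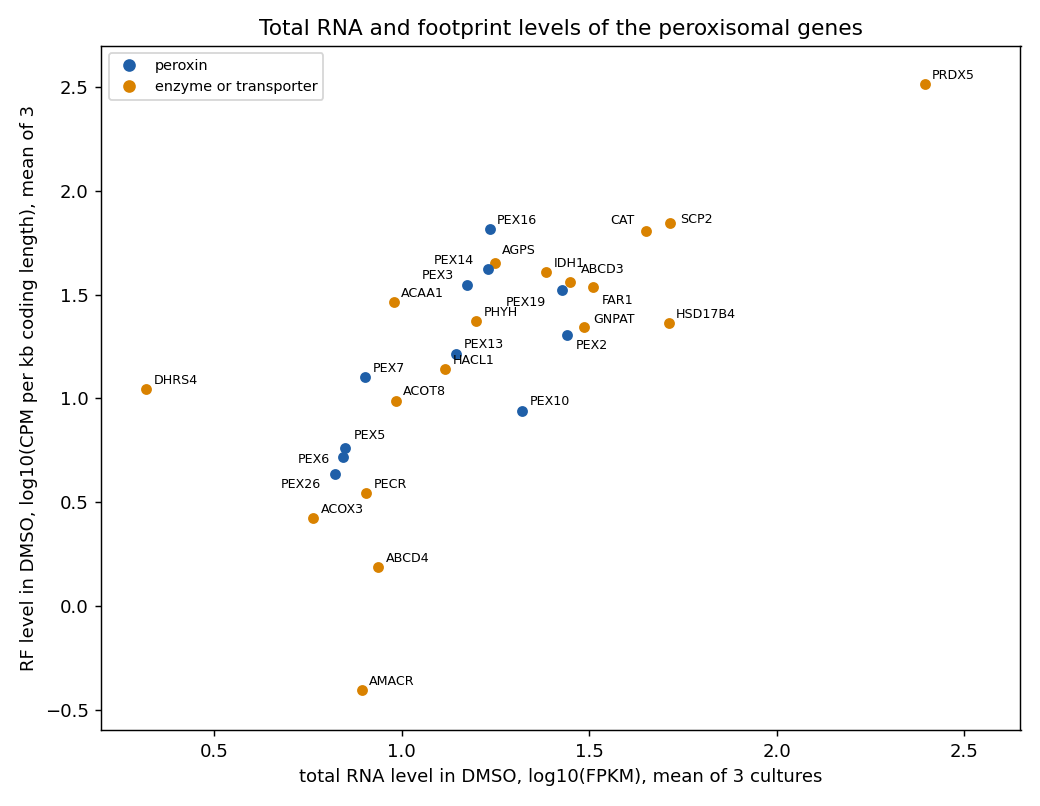
Mean total RNA level (log10 FPKM, horizontal axis) and mean RF level (log10 CPM per kilobase of coding length, vertical axis) of the 29 genes in the 3 DMSO cultures, with peroxins in blue and enzymes and transporters in orange. PRDX5 lies at the upper right at 248.1 FPKM, and AMACR, at 7.848 FPKM, lies lowest on the RF axis.

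Footprints relative to RNA, both taken per length (RF CPM per kilobase of coding length over FPKM, from the DMSO means), spanned a wide range among the 29 genes. The ratio was highest for DHRS4 at 5.31, whose RNA level was the lowest, followed by PEX16 at 3.81 and ACAA1, the peroxisomal thiolase, at 3.06. PRDX5, for all its footprints, had 1.32. Among the peroxins PEX10 had the lowest ratio at 0.415, and PEX26 had 0.652. The lowest of all were AMACR at 0.0501 and ABCD4 at 0.177, both on very few footprints. For AMACR 72.3% of the exonic bases are shared with other genes of the same strand. Its RNA in DMSO stood at 2.865 CPM by counts beside 7.848 FPKM, and RF levels come from counts. Whether the assignment of shared reads lowered its ratio was not tested. The spread of the RF level between cultures given above applies to each ratio.

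Between the treatments, translational efficiency (TE) was taken as the ratio of RF to total RNA CPM of the same gene. This ratio still carries the gene's exon and coding lengths, which are the same in both groups, so it is compared between treatments and not between genes.

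The study asked which mRNAs changed in translation after short mTOR inhibition. For the peroxisomal genes, no difference in TE, RF or total RNA passed an adjusted p of 0.05 in edgeR's quasi-likelihood test, and neither did that of any other gene, so that 0% of the 13329 tested genes were called in either direction in each of the 3 comparisons. The fitted TE was lower in rapamycin for 18 and higher for 10 of the 28 tested genes, with a median log2 difference of -0.18, beside -0.07 over all tested genes. PEX3, PEX2, GNPAT and HACL1 had a lower and PECR a higher TE at an unadjusted p under 0.05. These were 4 lower (14.3%) and 1 higher (3.57%) of 28, beside 6.61% lower and 6.04% higher over all tested genes. With a term for each culture, whose RF and total RNA library then share it, an unadjusted p under 0.05 was left for 2 members that were lower and 0 that were higher, beside 2.22% and 1.38% over all tested genes. The smallest adjusted p among the 28 genes was 0.223, for PEX2. The calls differed between tools. DESeq2's Wald test on the same counts called 588 genes lower and 665 higher in TE, among 13279 genes with a p. The same 5 of the 28 members were among them, with adjusted p-values of 5.45e-06 for GNPAT, 0.00137 for PEX2, 0.014 for PEX3, 0.0311 for HACL1 and 0.032 for PECR. That test also had no term for each culture and used 1 estimate of spread per gene for both library types. Its p-values therefore do not measure the spread of TE between cultures. Without DMSO culture 3, edgeR's test called 333 genes lower and 65 higher, and of the members PEX3 (adjusted p = 0.017). The DMSO cultures then left, 1 and 2, are those whose total RNA libraries had fewer genes detected. Without culture 3, 10.5% of all tested genes were higher in total RNA at an unadjusted p under 0.05, beside 3.32% in the main fit. Whether this changed the TE calls was not tested. With the term for each culture, edgeR's test called 0 genes lower, 0 higher and 0 of the members at an adjusted p under 0.05.

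The peroxins and the enzymes are given apart. Of the 11 peroxins 8 had a lower fitted TE, with a median of -0.42, and of the 17 tested enzymes and transporters 10 did, with a median of -0.05. The peroxin median rested on DMSO culture 3, the deepest RF library, since it was 0.04 when that culture was left out. It was -0.78 without rapamycin culture 2, -0.79 for peroxins with at least 50 counts and -0.13 with a term for each culture. Whether the peroxins and the enzymes differ was not tested.

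In 7 of the 28 genes (25%) the TE of all 3 rapamycin cultures lay below that of all 3 DMSO cultures, and in 0 it lay above, beside 6.32% lower and 4.7% higher over all tested genes. The 7 were 4 peroxins (PEX3, PEX14, PEX2 and PEX6) and 3 enzymes (HACL1, GNPAT and IDH1). Without the smallest RF library of each treatment, DMSO 1 and rapamycin 3, 8 were lower and 4 higher, beside 17.6% and 15.6% over all tested genes. Leaving out each culture in turn gave 7 to 9 lower and 0 to 3 higher, beside 10.2% to 15.7% lower and 8.04% to 11.6% higher over all tested genes.

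**Figure D2:**
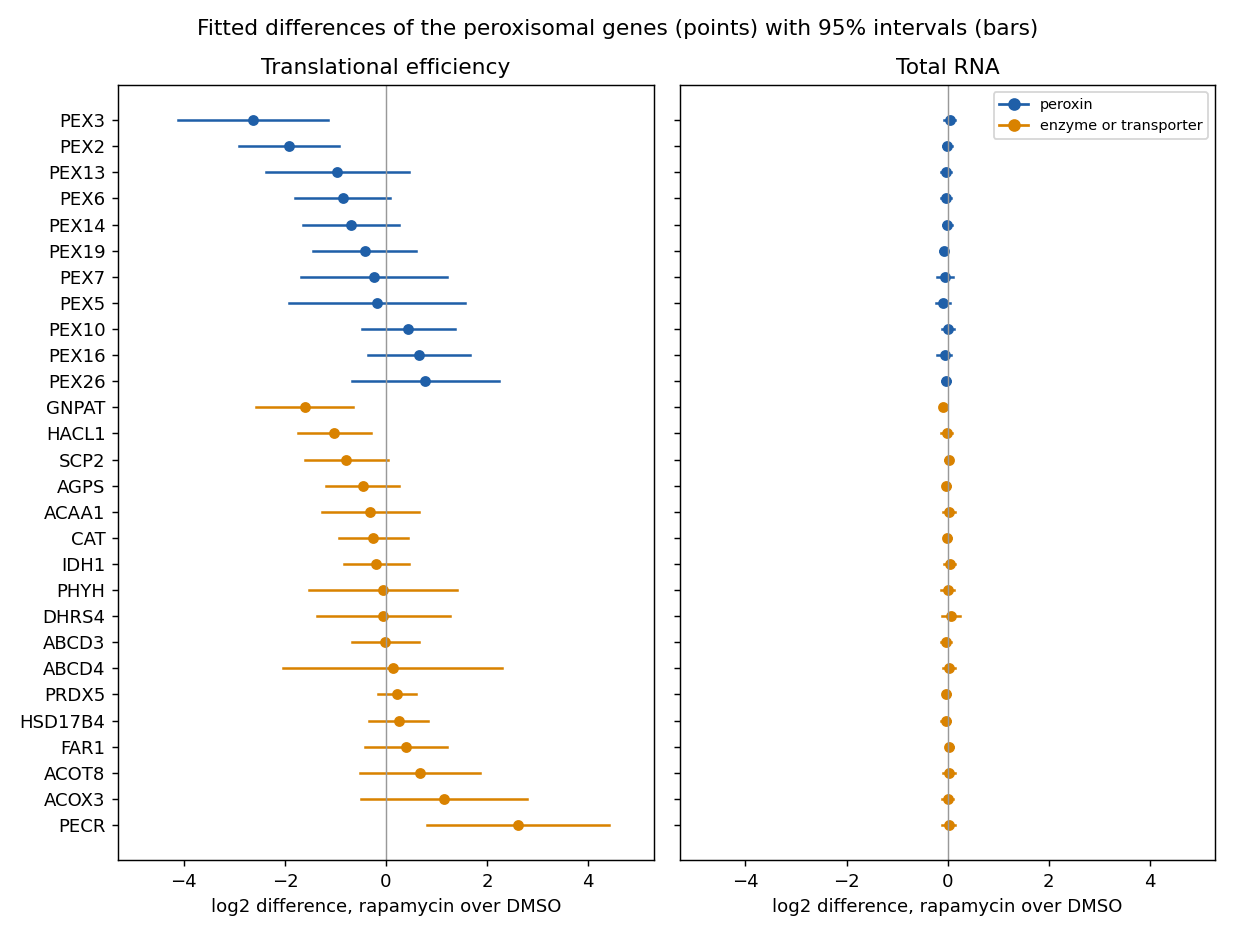
Fitted log2 difference between rapamycin and DMSO (horizontal axis) of TE (left) and total RNA (right) for the 28 tested genes, with points for the estimate and bars for its 95% interval, peroxins in blue and enzymes and transporters in orange. The TE intervals of PEX3, PEX2, GNPAT and HACL1 lie below 0 and that of PECR above it, before adjustment for multiple tests, while the total RNA estimates all lie between -0.1 and 0.07.

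Of the genes that place membrane proteins, PEX3, the membrane anchor for PEX19, showed the most negative fitted TE difference of all 28. Its RF level was 30.75, 69.38 and 18.26 CPM in the DMSO cultures, from 10, 55 and 27 counts. In rapamycin it was 2.469, 8.387 and 13.25 CPM, from 3, 7 and 4 counts. None of the rapamycin cultures reached the lowest DMSO culture, although the DMSO cultures differed widely among themselves. The log2 TE was 0.37, 1.47 and -0.4 in DMSO and -2.55, -1.29 and -0.71 in rapamycin, and the fitted log2 difference was -2.63 (SE 0.69, 95% interval -4.11 to -1.15, edgeR adjusted p = 0.231). Leaving out single cultures moved it between -3.33 and -1.81. Its total RNA lay between 14.39 and 15.73 FPKM in DMSO and between 13.93 and 16.02 in rapamycin, so the groups overlapped. The PEX3 gene lies on the plus strand at chr6:143771942-143811753 on GRCh37, and 6.25% of its exonic bases are shared with a long non-coding RNA of the same strand.

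PEX16, which takes part in the placement of PEX3, had the most footprints of the peroxins. Its RF level was 98.41, 37.84 and 62.21 CPM in DMSO and 60.07, 139 and 82.79 CPM in rapamycin, with overlapping groups. The fitted log2 TE difference was 0.66 (SE 0.48, 95% interval -0.36 to 1.67, adjusted p = 0.598). PEX19, the chaperone and receptor of newly made membrane proteins, had 15.38, 20.18 and 54.09 CPM in DMSO and 23.86, 22.76 and 26.49 CPM in rapamycin. Here the rapamycin cultures lay close together and inside the DMSO range. PEX19 differed at the RNA level at an unadjusted p under 0.05, by a log2 difference of -0.08 (SE 0.035, adjusted p = 0.766). Its FPKM was 26.55, 27.21 and 26.51 in DMSO and 24.65, 26.01 and 24.1 in rapamycin, which do not overlap but differ little. Of its exonic bases 16.3% are shared with another annotated protein-coding gene of the same strand, so part of its reads could not be assigned to it alone.

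Both receptors for matrix proteins had few footprints. PEX7 had 6.151, 3.784 and 27.05 CPM in DMSO and 23.04, 4.793 and 3.311 CPM in rapamycin, so that in each group 1 culture stood far above the others. Its fitted log2 TE difference was -0.24 (SE 0.67, 95% interval -1.68 to 1.21). For PEX5 the difference was -0.18 (SE 0.81), from 35 RF counts in all 6 libraries. The 95% interval for PEX5 was -1.91 to 1.56, so for both receptors it spans more than 1 log2 unit in either direction.

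The docking proteins both had a lower fitted TE, and neither passed even an unadjusted p of 0.05. PEX14 had 49.21, 46.67 and 46.66 CPM in DMSO, which lay close together, and 32.09, 37.14 and 6.623 CPM in rapamycin. All 3 rapamycin cultures lay below the DMSO cultures, the lowest of them on 2 counts in the smallest library. The fitted log2 TE difference was -0.7 (SE 0.44, 95% interval -1.64 to 0.25, adjusted p = 0.543). For PEX13 it was -0.96 (SE 0.66), with overlapping groups, and it was 0.04 without DMSO culture 3.

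In the RING ligase complex the 2 measured subunits had opposite signs. PEX2 had 15.38, 13.88 and 26.37 RF CPM in DMSO, from 5, 11 and 39 counts, and 4.937, 7.189 and 3.311 CPM in rapamycin, from 6, 6 and 1 counts. The groups did not overlap. The log2 TE was -0.93, -1.03 and -0.25 in DMSO and -2.15, -1.81 and -2.58 in rapamycin. The fitted difference of -1.91 (SE 0.46, 95% interval -2.91 to -0.92, adjusted p = 0.223) corresponds to a 3.77-fold lower TE, at total RNA levels of 27.57 ± 0.6158 FPKM in DMSO and 26.87 ± 1.076 FPKM in rapamycin (SD, n = 3). PEX10 had 9.226, 7.568 and 8.79 RF CPM in DMSO and 9.875, 14.38 and 9.934 CPM in rapamycin, higher in rapamycin without overlap, with a log2 TE difference of 0.44 (SE 0.43). Of the exonic bases of PEX10 39.1% are shared with RER1 on the opposite strand, and whether the counting used strand is not given in the sources used here.

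For the release of the receptor, PEX6, an AAA ATPase, had 15.38, 16.4 and 14.2 RF CPM in DMSO and 5.76, 11.98 and 6.623 CPM in rapamycin. These groups did not overlap either, on 2 to 21 counts per library. The fitted log2 TE difference was -0.86 (SE 0.44, 95% interval -1.8 to 0.08, adjusted p = 0.432). PEX26, its membrane anchor, had 0 counts in DMSO culture 2, and its difference of 0.77 (SE 0.68) became 3.34 when DMSO culture 3 was left out.

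**Figure D3:**
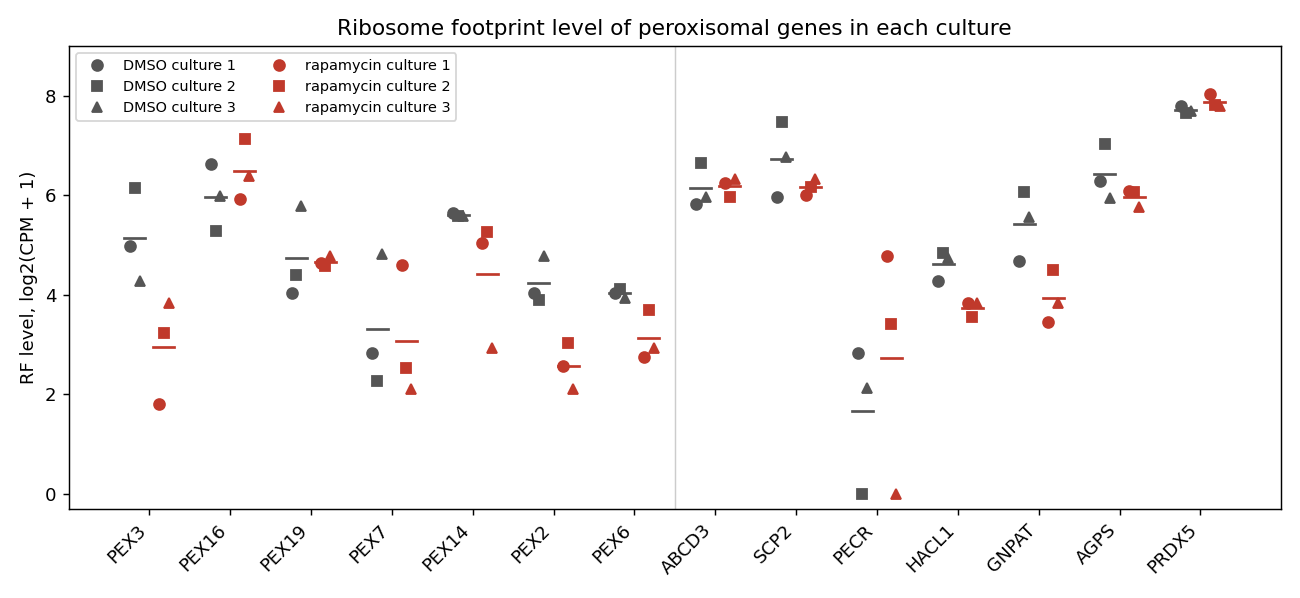
RF level, as log2(CPM + 1), of 7 peroxins (left of the vertical line) and 7 enzymes and transporters (right of it) in each of the 3 DMSO cultures (grey) and 3 rapamycin cultures (red), with a horizontal line at each group mean. The groups separate for PEX3, PEX14, PEX2, PEX6, HACL1 and GNPAT, all lower in rapamycin, and for PRDX5, slightly higher, while the 3 rapamycin values of PECR run from 0 to 26.33 CPM.

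Among the transporters, ABCD3, which carries branched and long acyl chains into the peroxisome, had overlapping groups. Its RF level was 55.36, 99.65 and 61.53 CPM in DMSO and 74.88, 61.1 and 79.48 CPM in rapamycin. The fitted log2 TE difference was -0.01 with a 95% interval of -0.68 to 0.66. ABCD4, a relative that works in lysosomal cobalamin transport, had 16 RF counts in all, and its difference of 0.13 had a 95% interval of -2.04 to 2.3.

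The enzymes listed here under beta-oxidation, which include the reductase PECR and the thioesterase ACOT8, did not share a direction. The fitted TE was below DMSO for 2 of the 6 tested and above it for 4, with a median log2 difference of 0.46. SCP2, with the most footprints of this group, had 61.51, 176.6 and 107.5 CPM in DMSO and 63.36, 70.69 and 79.48 CPM in rapamycin. The rapamycin cultures lay in the lower part of the DMSO range, and the log2 TE difference was -0.79 (SE 0.38, 95% interval -1.6 to 0.03, adjusted p = 0.41). Of the exonic bases of SCP2 20.8% are shared with annotated processed pseudogenes.

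PECR, the trans-2-enoyl-CoA reductase, was the only one of the 28 genes with a higher TE at an unadjusted p under 0.05. Its RF level was 6.151, 0 and 3.381 CPM in DMSO, from 2, 0 and 5 counts, and 26.33, 9.585 and 0 CPM in rapamycin, from 32, 8 and 0 counts. The groups overlapped, since the highest and a zero value both came from rapamycin, and the zeros allow up to 3.78 CPM in DMSO culture 2 and 9.93 CPM in rapamycin culture 3. The fitted log2 difference was 2.62 (SE 0.84, 95% interval 0.82 to 4.41, adjusted p = 0.242). Without rapamycin culture 1 it was 1.41 and no longer had an unadjusted p under 0.05. Its total RNA was 7.716, 8.406 and 8.042 FPKM in DMSO and 9.148, 8.895 and 7.845 FPKM in rapamycin.

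The other tested enzymes of this group gave smaller or less certain differences. HSD17B4 had a log2 TE difference of 0.26 (SE 0.27), ACAA1 -0.31 (SE 0.45), the thioesterase ACOT8 0.67 (SE 0.55) and the branched-chain oxidase ACOX3 1.15 (SE 0.77). The sign for ACAA1 turned, to 0.42, without DMSO culture 2, and that for ACOT8, to -0.02, without rapamycin culture 1. For ACAA1 21.2% and for ACOT8 34.2% of the exonic bases are shared with other genes, mainly on the opposite strand. AMACR, the racemase of branched acyl chains, had 3 RF counts in the 6 libraries and could not be tested. It had 228 to 277 counts in total RNA at 7.848 ± 0.3894 FPKM in DMSO, and 72.3% of its exonic bases are shared, mostly with the readthrough gene C1QTNF3-AMACR.

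In alpha-oxidation, HACL1, the lyase that splits a single carbon from the acyl chain, had 18.45, 27.75 and 25.69 RF CPM in DMSO and 13.17, 10.78 and 13.25 CPM in rapamycin. The groups did not overlap and both were tight, on 4 to 38 counts per library. Of the exonic bases of HACL1 15.4% are shared with BTD on the opposite strand. The log2 TE was -0.66, -0.06 and -0.12 in DMSO and -1.03, -1.28 and -0.91 in rapamycin. The fitted difference was -1.02 (SE 0.34, 95% interval -1.75 to -0.29, adjusted p = 0.254), and it stayed between -1.11 and -0.89 when single cultures were left out. Total RNA was 13.06 ± 0.6164 FPKM in DMSO and 12.05 ± 0.3544 FPKM in rapamycin (SD, n = 3), with a log2 difference from counts of -0.02 (SE 0.049). PHYH, the hydroxylase that acts before it, had 0 counts in DMSO culture 2 and 52.28 CPM in DMSO culture 1, and its TE difference was -0.06 (SE 0.68).

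Ether lipid synthesis starts in the peroxisome with GNPAT and AGPS, fed by the fatty alcohols that FAR1 makes. GNPAT, the acyltransferase of the opening step, had 24.6, 65.59 and 45.98 RF CPM in DMSO, from 8, 52 and 68 counts. In rapamycin it had 9.875, 21.57 and 13.25 CPM, from 12, 18 and 4 counts, all below the DMSO cultures. The fitted log2 TE difference was -1.61 (SE 0.45, 95% interval -2.57 to -0.66, adjusted p = 0.231), a 3.06-fold lower TE. GNPAT was the only gene of the 28 with an unadjusted p under 0.05 in all 3 comparisons, since RF alone gave -1.62 (SE 0.61, adjusted p = 1) and total RNA -0.09 (SE 0.035, adjusted p = 0.766). Its FPKM was 31.56, 30.47 and 30.02 in DMSO and 28.25, 28.76 and 30.27 in rapamycin, which overlap on this scale. None of its exonic bases are shared with another annotated gene.

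For the other enzymes of the pathway the TE interval included 0, and whether they differ from GNPAT was not tested. AGPS, which replaces the acyl chain by an alkyl chain, had 76.88, 129.9 and 60.18 RF CPM in DMSO and 66.66, 65.9 and 52.98 CPM in rapamycin, with overlapping groups. Its log2 TE difference was -0.46 (SE 0.34, 95% interval -1.18 to 0.26), and it was 0.01 without DMSO culture 2. For FAR1 the difference was 0.39 (SE 0.38).

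The 4 enzymes grouped as redox and other (PRDX5, CAT, IDH1 and DHRS4) had fitted log2 TE differences between -0.25 and 0.21. PRDX5, with the most footprints of all members and the smallest SE, had 221.4, 200.6 and 206.9 RF CPM in DMSO and 260.9, 224.1 and 221.9 CPM in rapamycin. The rapamycin cultures lay just above the DMSO cultures, and the log2 TE difference was 0.21 (SE 0.18, 95% interval -0.16 to 0.59). CAT had a difference of -0.25 (SE 0.32), IDH1, which supplies NADPH, -0.19 (SE 0.3) and DHRS4 -0.05 (SE 0.61). IDH1 counts among the 7 genes without overlap, although its TE in DMSO, -0.32, -0.17 and -0.41 on the log2 scale, lay barely above the -0.45, -0.48 and -0.54 in rapamycin. For DHRS4 11.2% of the exonic bases are shared with an antisense RNA, and near-identical copies of the gene exist, so its counts are uncertain.

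The test of footprints alone had wider errors. At an unadjusted p under 0.05, PEX3 and GNPAT were lower and no member was higher, 2 (7.14%) and 0 of 28, beside 2% lower and 1.71% higher over all tested genes. DESeq2's Wald test called 1 gene lower and 4 higher in RF, and 0 of the members. The RF level of the cultures did not overlap in 6 genes that were lower (PEX3, PEX14, PEX2, PEX6, HACL1 and GNPAT, 21.4% of 28) and in 2 that were higher (PEX10 and PRDX5), beside 4.3% lower and 5.17% higher over all tested genes. PEX2, HACL1 and PECR had no unadjusted p under 0.05 in RF. The median log2 RF difference was -0.2 over the 28 genes, -0.44 for peroxins and -0.08 for enzymes and transporters, beside 0.01 over all tested genes. For PEX2 the RF difference was -1.78 with an SE of 0.91, against an SE of 0.46 for its TE. The TE test used 1 estimate of spread for RF and total RNA libraries, with a biological coefficient of variation of 24.4%, whereas RF libraries alone gave 54.9% and total RNA libraries alone 5.31%. The TE errors given above are therefore narrower than RF libraries alone would give.

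Total RNA of the peroxisomal genes was nearly level between the groups. The log2 differences of the 28 genes ran from -0.1 to 0.07 with a median of -0.01, beside 0.01 over all tested genes. PEX19 and GNPAT were lower at an unadjusted p under 0.05 and none was higher, 2 (7.14%) and 0 of 28, beside 2.51% lower and 3.32% higher over all tested genes. DESeq2's Wald test called 4 genes lower and 25 higher in total RNA, and 0 of the members. Without total RNA libraries DMSO 1 and 2, which stood apart in detected genes, the differences were -0.07 for PEX19 and -0.06 for GNPAT, with no unadjusted p under 0.05. That fit has 1 DMSO library, which is assumed to vary like the rapamycin libraries. In bulk lysates a lower level in every cell and a lower share of cells that express a gene cannot be told apart.

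Summed over the 11 peroxins, the RF level was 292.2, 220.7 and 305 CPM in DMSO and 182.7, 275.6 and 185.4 CPM in rapamycin. DMSO culture 2 and rapamycin culture 2 crossed, so the groups overlapped. The summed total RNA of the peroxins was 395.1, 397 and 399.3 CPM in DMSO and 388.7, 384.8 and 388.4 CPM in rapamycin, without overlap, at means of 397 and 387 CPM. Summed over the 18 enzymes and transporters, the RF level was 902 ± 159 CPM in DMSO and 823 ± 35.6 CPM in rapamycin (SD, n = 3), and total RNA was 1280 ± 8 CPM and 1270 ± 24.4 CPM. Summed over all 29 genes, the RF level was 1119, 1306 and 1099 CPM in DMSO and 1041, 1063 and 1010 CPM in rapamycin. These scaled sums were lower without overlap. As a percentage of library counts, without scaling, the same RF sums overlapped. They were 0.12, 0.117 and 0.103 in DMSO and 0.101, 0.112 and 0.109 in rapamycin. For the 52 other peroxisomal genes listed below, the scaled RF sums overlapped as well. They were 1181, 1453 and 1447 CPM in DMSO and 1168, 1439 and 1268 CPM in rapamycin. Total RNA of the 29 genes was 1685, 1679 and 1673 CPM in DMSO and 1674, 1624 and 1665 CPM in rapamycin, with overlap.

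**Figure D4:**
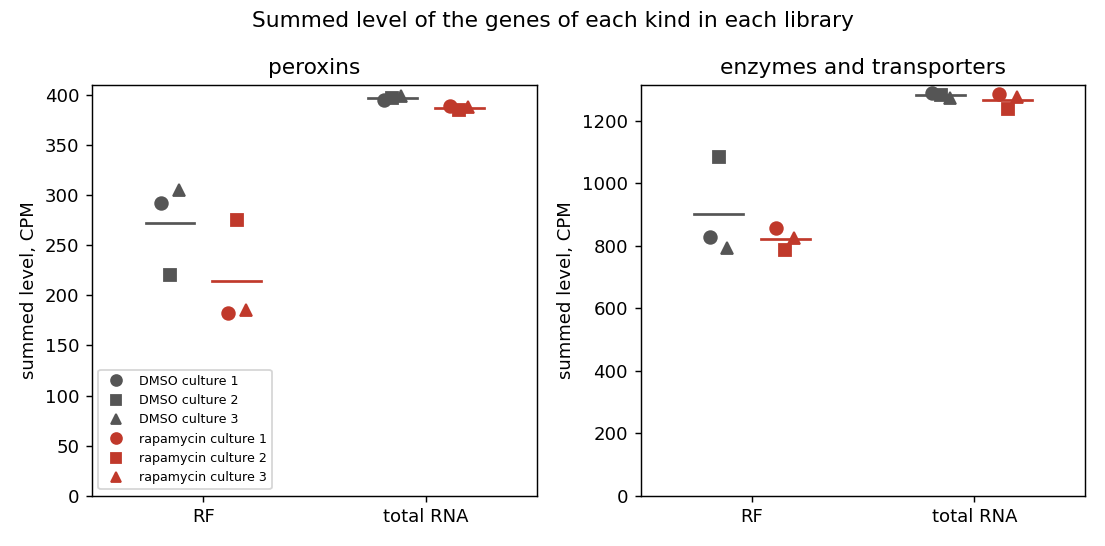
Summed level in CPM (vertical axis) of the 11 peroxins (left) and the 18 enzymes and transporters (right) in each RF and total RNA library, with DMSO in grey, rapamycin in red and a horizontal line at each group mean. The peroxin RF sums overlap, with DMSO between 220.7 and 305 CPM and rapamycin between 182.7 and 275.6 CPM, and the total RNA sums differ little.

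Beyond these members, 52 other genes of peroxisomal function were listed, among them the remaining peroxins, fission factors and oxidases, and 42 had enough counts. The fitted TE was below DMSO for 26 of these and above it for 16, with a median log2 difference of -0.19. At an unadjusted p under 0.05, 4 were lower (9.52%) and 1 was higher (2.38%), beside 6.61% and 6.04% over all tested genes, and 0 passed after adjustment. The TE of the cultures did not overlap and was lower in 2 of the 42 (4.76%), beside 6.32% over all tested genes. The lower ones were SLC27A2 at -3.28 (SE 0.69, adjusted p = 0.183), MVK at -2.48, TMEM135 at -1.52 and ACSL1 at -1.38, and the higher one was ACBD5 at 2.76 (SE 0.89, adjusted p = 0.242).

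SLC27A2, a very long chain acyl-CoA synthetase, had the smallest adjusted TE p of these 42 genes, on almost no RNA. Its total RNA counts were 5, 2 and 9 in DMSO and 21, 22 and 30 in rapamycin, whereas the footprint counts were 11, 58 and 45 with DMSO and 27, 17 and 8 with the drug. The TE ratio therefore divides by very low RNA levels, and DMSO cultures 1 and 2 are the total RNA libraries with fewer genes detected. ACBD5, which tethers peroxisomes to the endoplasmic reticulum, had footprint counts of 0, 0 and 10 with DMSO and of 52, 11 and 1 with the drug. As for PECR, most of its rapamycin footprints came from culture 1. At the RNA level SLC27A2 was higher by 2.27 (SE 0.85), and SOD1 and MPV17L were lower by log2 differences of -0.07 and -0.13, all 3 at an unadjusted p under 0.05 and an adjusted p of 0.766.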

How the data were processed

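Ribosome footprints and total RNA were measured in 3 DMSO and 3 rapamycin cultures of PANC-1 cells (12 libraries). The authors deposited raw counts per gene: reads were aligned to GRCh37 with HISAT2 and assigned with featureCounts to the exons of protein-coding genes, after removal of ribosomal RNA from the footprints. The authors also deposited FPKM values of total RNA, made by cuffnorm of Cufflinks 2.2.1, per the submitters' processing notes. The other versions are not given in the sources used here. Columns with the authors' own TE test (TE values, fold changes, p-values) were not used, and 0 columns were unmatched.

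Counts were scaled by TMM within each library type and tested with edgeR 4.0.16 (R 4.3.3), by the quasi-likelihood test with robust estimation, over genes with at least 10 counts in the RF and at least 10 in the total RNA libraries. The TE comparison was the library type by treatment interaction. P-values were Benjamini-Hochberg adjusted over all tested genes. Those of the RF and total RNA comparisons measure the spread between these cultures. The main TE test used a shared estimate of spread for RF and total RNA libraries. Having no term for each culture, it treated the RF and total RNA library of a culture as independent. The p-values of the main TE test therefore do not measure the spread of TE between cultures. The same holds for DESeq2's test of TE, which used the same design. The log2 TE of single cultures had a prior count of 2 added. Reads had no molecular identifiers, so floors are for counting error alone.

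The members and lists were chosen with earlier results of these data known. Named with values per culture were the members with an unadjusted p under 0.05 and, in each functional group, the member with the most RF counts. Genes on the additional list were named only at an unadjusted p under 0.05 in TE or total RNA. Coding lengths and shared exons came from GENCODE annotation lifted to GRCh37, matched by Ensembl identifier for all 29 members. Coding ends came from the same annotation for all members but PEX2, whose coding end was not searched. No protein sequences are given. Alternatives were DESeq2 1.42.0, other count minimums of 1 and 50, blocks, limma 3.58.1 on log2(FPKM + 1) or log2(FPKM + 0.1), and leaving out libraries. The alternatives that left out the smallest RF libraries or total RNA libraries DMSO 1 and 2, and all those of the overlap count, were chosen after seeing the data. One marker of duct cells is not reported here.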

Additional observations from a re-analysis of the deposited data

How the results depend on the processing

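No fitted difference of PEX3, PEX2, PECR, HACL1 or GNPAT in TE, PEX3 or GNPAT in RF, or PEX19 or GNPAT in total RNA changed sign under any alternative tried. The calls differed between the tools. DESeq2's Wald test called 588 genes lower and 665 higher in TE, 1 and 4 in RF and 4 and 25 in total RNA, where edgeR called 0, and called 5 members in TE. At an unadjusted p under 0.05 it gave 7 members lower and 3 higher in TE, beside 11.3% and 10.5% over all genes with a p. The cause was not tested.

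Leaving out each culture gave 0 to 333 genes lower and 0 to 65 higher in TE (adjusted p), 0 to 1 and 0 to 5 in RF and 0 to 4 and 0 to 681 in total RNA, the highest counts in TE and total RNA all without DMSO culture 3. For the members it gave 0 to 1 called in TE. At an unadjusted p under 0.05, 4 to 6 members were lower and 0 to 2 higher in TE. Over all tested genes these shares were 4.41% to 13.3% and 4.75% to 9.94%. In RF 1 to 3 members were lower, beside 1.2% to 2.67%, and in total RNA 0 to 2, beside 1.82% to 2.98%. In TE 0 to 3 members were higher without overlap, beside 8.04% to 11.6%. The peroxin median ran from -0.78 to 0.04 in TE and from -0.81 to -0.27 in RF, and that of enzymes and transporters from -0.17 to 0.13 and from -0.16 to 0.18.

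A minimum of 50 counts gave peroxin medians of -0.79 in TE and -0.81 in RF. At an unadjusted p under 0.05 it gave 0 members higher in TE, since PECR falls below it, beside 4.58% over all tested genes. It gave 0 members lower in total RNA, beside 1.84%. A minimum of 1 count gave 10 genes lower and 10 higher in RF. A culture block gave 2 members lower and 0 higher in TE at an unadjusted p under 0.05, beside 2.22% and 1.38% over all tested genes. Its peroxin median was -0.13. Without total RNA libraries DMSO 1 and 2, which leaves 1 DMSO library, the peroxin median in TE was -0.36. Without the smallest RF library of each treatment, 4 members were higher in TE without overlap, beside 15.6% over all tested genes. The log2(FPKM + 1) values, with or without a minimum FPKM of 1, and the log2(FPKM + 0.1) values each gave 1 gene higher in total RNA. Each gave 1 member lower at an unadjusted p under 0.05, beside 2.89% to 3.37% over all genes tested in that setting.

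Deviations of same-numbered cultures from their group means correlated at -0.118, -0.061 and -0.074 in RF and at -0.107, -0.119 and -0.216 in total RNA. For differently numbered cultures the correlations ran from -0.021 to 0.09 in RF and from -0.135 to 0.193 in total RNA. With 3 cultures per group, these values cannot decide whether same-numbered cultures were handled together. The replicate block gave 1 gene higher in TE, and 2 lower and 4 higher in RF. At an unadjusted p under 0.05 it gave 0 members higher in TE and 1 lower in total RNA. Over all tested genes these shares were 4.6% and 2.51%. Its peroxin median was -0.11 in RF and -0.17 in TE.

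RF depth limits the precision: the members' median was 100.5 RF counts over 6 libraries, and the standard error of the TE difference ran from 0.18 for PRDX5 to 1 for ABCD4.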
